A study of Xenopus tropicalis with 6 samples.

Results

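The genes described here encode the keratin filaments of epithelial cells and the junctions that hold those cells together. They were chosen by gene symbol alone as the keratins (*krt* with a number), the claudins (*cldn* with a number), other tight junction genes such as *ocln*, *tjp1*, *tjp3*, *cgn* and *cgnl1*, and the desmosome and plakin genes *dsp*, *dsg*, *dsc*, *pkp*, *jup*, *ppl* and *evpl* with *epcam*. Symbols starting with *f11r* were also sought and gave no gene. In this way 66 of the 23634 genes in the table were selected, and 34 of them averaged 1 TPM or more in at least one group and could be tested. TPM scales length-corrected reads to the same total in every sample, so that a value is a share of the transcripts and different genes can be compared on this scale. The tested genes comprised 8 of 26 keratins, 10 of 22 claudins, 6 of 6 other tight junction genes and 10 of 12 desmosome, plakin and *epcam* genes.

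RNA came from whole *Xenopus tropicalis* embryos of the Nigerian strain at Stage 16, when the neural plate folds and the surrounding ectoderm forms the embryonic epidermis. In the n1-src morphant group, 3 samples came from embryos injected with 10 ng of splice-blocking morpholinos against *n1-src*, antisense oligonucleotides directed at the neural microexon of the *src* kinase gene. In the control group, 3 samples came from siblings that had received an equal dose of standard control morpholino. The sample labels give *X. tropicalis*, whereas the series' design text names *X. laevis*, and neither says how many embryos were pooled in a sample.

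Keratins form intermediate filaments from pairs of a type I and a type II protein, and in epithelial cells these filaments end at desmosomes. At a desmosome, the cadherins of the desmoglein (*dsg*) and desmocollin (*dsc*) families span the gap between cells, plakoglobin (*jup*) and plakophilins (*pkp*) bind them on the inside, and desmoplakin (*dsp*) ties the complex to the keratins. Claudins and occludin (*ocln*) are membrane proteins of the tight junction, which seals the space between epithelial cells, and the ZO proteins (*tjp*) and cingulin (*cgn*) connect them to the actin cytoskeleton. In the frog embryo, the outer ectoderm is a polarized epithelium from early cleavage on, and keratins of the simple epithelial kind are also abundant in the notochord of vertebrate embryos.

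Each sample held between 12710 and 13126 genes at 1 TPM or more. The first morphant sample stands apart because 4.89% of its TPM falls on 2 genes, LOC108645507 and LOC100335111, against 0.193 to 0.525% in the other samples. The targeted gene, summed over all its transcripts, was expressed at 15.6, 17.3 and 34.6 TPM in morphants and at 18.7, 25.8 and 49.2 TPM in control embryos of sets 1, 2 and 3, a *src* log2 fold change of -0.44 (standard error, SE, 0.084, limma adjusted p = 0.0398). This value does not separate *n1-src* from *c-src*. The *src* call was lost under 9 of the 13 alternatives described below, while the log2 fold change stayed between -0.53 and -0.34. Samples that share a replicate number are called a set here and were compared with each other, because the study describes sibling embryos and speaks of sets.

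Of the 34 tested genes, *krt19*, *krt12*, *krt16*, *cldn1*, *cldn34* and *tjp1* were lower in morphants, and *cldn6.1* was higher. These 7 calls are 20.6% of the genes tested, while limma called 8.49% of all 13382 genes tested (2.62% higher and 5.87% lower), at an adjusted p of at most 0.05 with the replicate set as a block. The most abundant genes, *krt18*, *krt5.7*, *krt8*, *cldn6.2* and *epcam*, did not pass the threshold, and neither did any desmosome gene. Log2 fold changes had a median of -0.15 over the 34 genes and of -0.068 over all genes tested, and they ranged from -0.94 for *cldn34* to 0.57 for *cldn6.1*. Of the 34, 24 had a negative and 10 a positive log2 fold change, or 19 and 15 after median scaling of the samples. Among the 24, *cldn23* and *cldn5* averaged 1 TPM or more only in control embryos, so passing the filter favoured a negative sign. With a filter at 5 TPM, 20 genes were negative and 10 positive. Across all genes, 350 were called higher and 786 lower, or 569 and 416 with median scaling. An unadjusted p of at most 0.05 was reached by 20 of the 34 genes, against 33.1% of all genes tested with limma. In all 3 sets, 17 genes were lower and 6 higher in the morphant sample, against a background of 38.5% lower and 17.6% higher. The 3 morphant samples lay below all 3 controls for 5 genes (background 11.3%) and above them for 2 (background 3.71%). In whole embryos, fewer cells of a type and less RNA per cell cannot be told apart.

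**Figure D1:**
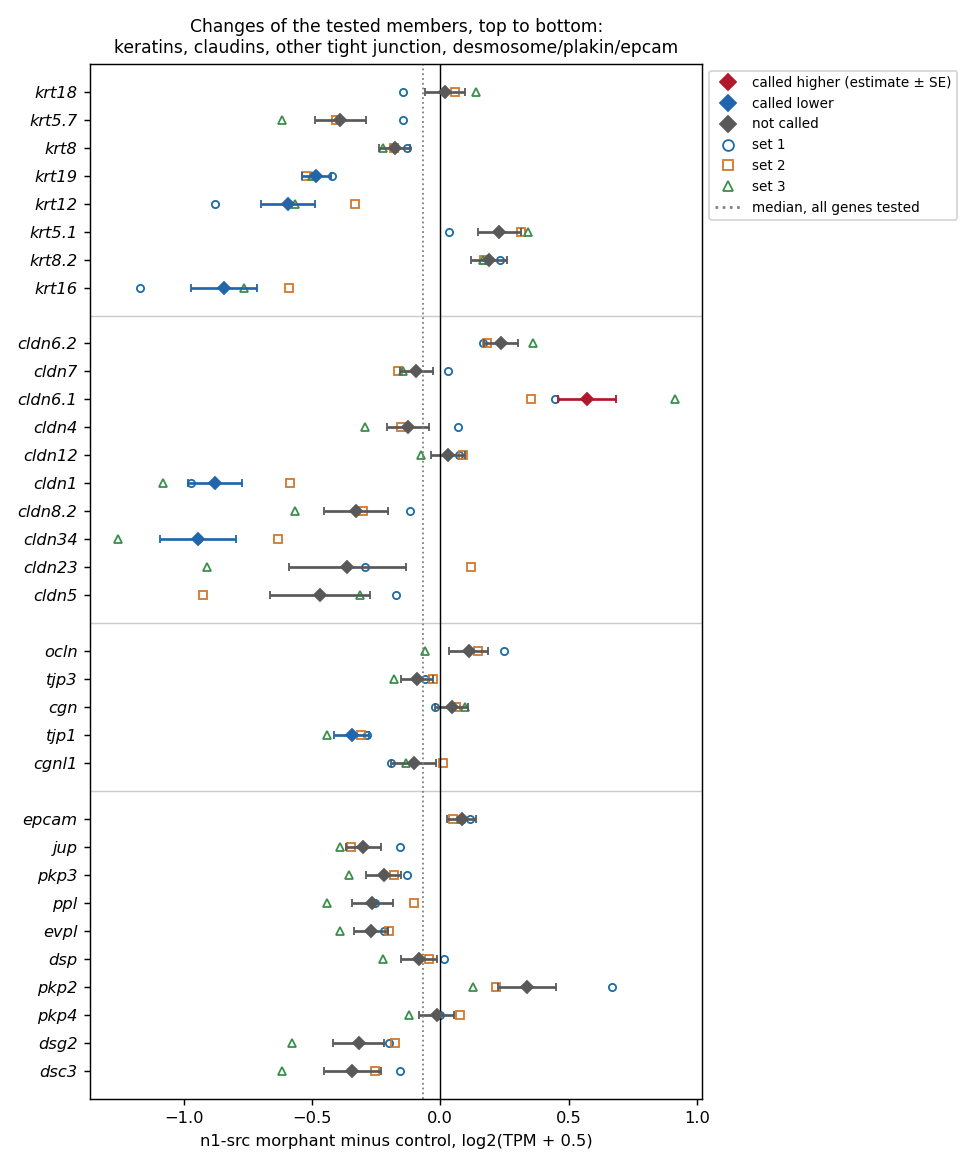
Log2 fold change (n1-src morphant minus control, log2(TPM + 0.5)) of 33 of the tested genes, ordered within each class by mean TPM. Diamonds give the limma estimate with its standard error, coloured by call, open symbols give the difference within each replicate set, and the dotted line marks the median of all genes tested (-0.068). The 6 genes called lower lie between -0.94 and -0.34, and *cldn6.1* lies at 0.57.

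None of the 7 calls held without the replicate block (limma adjusted p of 0.210 for *cldn1* to 0.710 for *krt19*) or when all detected genes were tested without a filter. For 5 of the 7, the range of the 3 control samples on the log2 scale exceeded the absolute log2 fold change, but not for *cldn1* and *tjp1*. The range was also the larger for 29 of the 34 genes (85.3%), the same share as the 85.3% of all genes tested. Leaving out set 3 also ended all 7 calls, with adjusted p from limma between 0.0514 for *cldn1* and 0.130 for *tjp1*.

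Keratin transcripts made up 1.05, 1.21 and 1.39% of all TPM in the morphant samples of sets 1, 2 and 3, and 1.19, 1.36 and 1.71% in the control samples. The morphant sample was below its control in each set, by -0.18, -0.18 and -0.30 on the log2 scale, while the groups overlapped. Only 5 of the 26 keratin genes, *krt18*, *krt5.7*, *krt8*, *krt19* and *krt12*, accounted for 99.5 to 99.7% of keratin TPM in every sample. By symbol, *krt18*, *krt19*, *krt12* and *krt16* belong to type I, and *krt5.7*, *krt8*, *krt8.2* and *krt5.1* to type II.

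*krt18* encodes the type I partner of *krt8* in simple epithelia. Its expression was 4055, 4712 and 4337 TPM in morphants and 4488, 4524 and 3934 TPM in control embryos, which places it at rank 15 of all genes by control mean. The groups overlapped and the sets moved in different directions, with a log2 fold change of 0.018 (SE 0.078, limma adjusted p = 0.890). For *krt8*, expression was 3201, 3436 and 3901 TPM in morphants and 3502, 3889.5 and 4558 TPM in control embryos. *krt8* was below its control in every set, but the log2 fold change of -0.18 (SE 0.061) missed the threshold (limma adjusted p = 0.112).

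*krt5.7*, named after the type II keratin of the basal epidermis in mammals, varied most between sets among the abundant keratins. Its level was 2541, 3068 and 4715 TPM in morphants, against 2810.1, 4061 and 7239 TPM in control embryos of the same sets. Control set 3 therefore stood 2.58-fold above control set 1, a wider gap than that between groups. Within sets the difference was -0.15, -0.40 and -0.62, and the log2 fold change of -0.39 (SE 0.0995) did not pass the threshold (limma adjusted p = 0.0638). Without set 1, it passed, at -0.51 with an adjusted p of 0.0171 from limma. *krt5.7* alone took 24.2 to 33.8% of keratin TPM in morphants and 23.7 to 42.3% in control embryos.

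**Figure D2:**
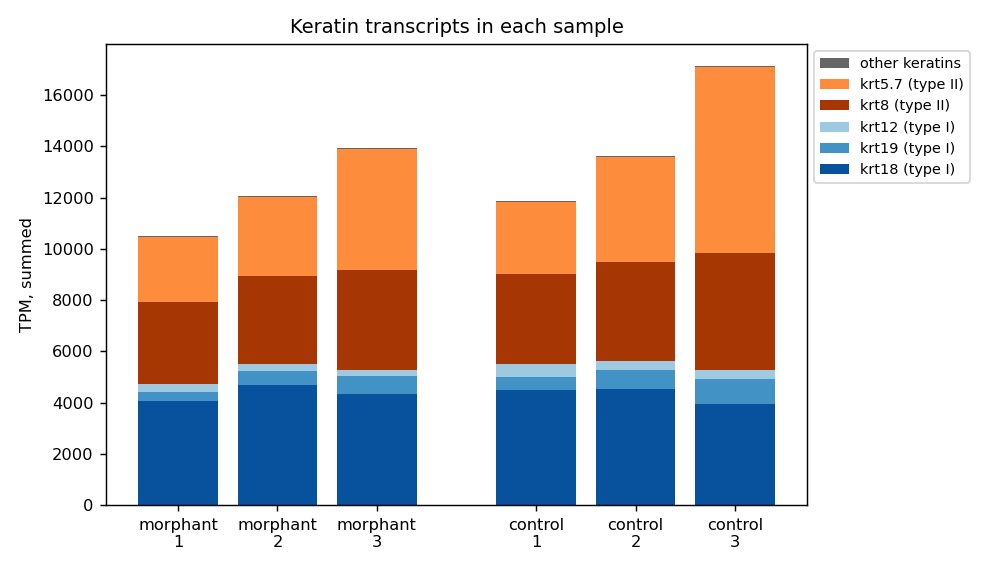
Summed TPM of keratin genes in each morphant (left) and control (right) sample, stacked by gene, with type I genes in blue and type II genes in orange. Type I keratins vary less in height than type II (4717 to 5508 TPM of type I in morphants, 5291 to 5624 TPM in controls) and are lowest in the first morphant sample. *krt5.7* makes most of the difference between sets.

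Summed type I transcripts were at 4717, 5508 and 5282 TPM in morphants and at 5514, 5624 and 5291 TPM in control embryos. Type II transcripts were at 5786, 6544 and 8664 TPM in morphants, against 6353, 7984 and 11837 TPM in control embryos. Type I sums thus varied less between samples than type II sums, which were highest in set 3 of both groups. Within sets 1, 2 and 3, the morphant minus control difference on the log2 scale was -0.23, -0.030 and -0.0024 for type I. For type II it was -0.13, -0.29 and -0.45. The ratio of type II to type I transcripts was 1.23, 1.19 and 1.64 in morphants and 1.15, 1.42 and 2.24 in control embryos, above its control in set 1 and below it in sets 2 and 3.

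Among the type I keratins of middle abundance, *krt19* and *krt12* were lower in morphants. *krt19*, a simple epithelial keratin with a short tail, was expressed at 384, 526 and 691 TPM in morphants and at 515, 757 and 978 TPM in control embryos. Each group spans a wide range, and the groups overlap, yet the difference was nearly the same in the 3 sets, at -0.42, -0.52 and -0.50. The log2 fold change of *krt19* was -0.48 (SE 0.056, limma adjusted p = 0.0200), for means of 534 ± 154 TPM in morphants and 749.8 ± 232 TPM in control embryos (SD, n = 3 each). Without set 2, the adjusted p from limma was 0.0811.

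Expression of *krt12*, known in mammals as a keratin of the cornea, was 274, 261 and 244 TPM in morphants, against 503, 329 and 362 TPM in control embryos. All 3 morphant samples lay below all 3 controls, and the morphant mean of 259.8 ± 14.8 TPM was 65.3% of the control mean of 398 ± 92.6 TPM (SD, n = 3 each). The gap was widest in set 1, where the control sample was highest. The log2 fold change was -0.59 (SE 0.11, limma adjusted p = 0.0358, and 0.0511 after median scaling).

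*krt16*, which in mammals is induced in wounded epidermis, was much less abundant. It had 2.65, 7.87 and 9.43 TPM in morphants and 6.58, 12.1 and 16.4 TPM in control embryos. Set 1 was lowest in both groups, and the morphant sample was lower within each set, by -1.17, -0.59 and -0.77. Its log2 fold change of -0.84 (SE 0.13, limma adjusted p = 0.0288) corresponds to a morphant mean at 56.9% of the control mean.

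Of the remaining tested keratins, *krt5.1* averaged 28.2 ± 1.62 TPM in morphants and 24.2 ± 4.36 TPM in control embryos, and *krt8.2* averaged 15.2 ± 3.84 TPM in morphants and 13.3 ± 3.59 TPM in control embryos (SD, n = 3 each). Both were above their control in every set without passing the threshold (limma adjusted p = 0.126 for *krt5.1* and 0.128 for *krt8.2*). Thus 3 of 8 tested keratins were called lower and 0 higher, where limma called 5.87% of all genes lower and 2.62% higher. An unadjusted p under 0.05 from limma was reached by 7 of the 8, against 33.1% of all genes tested. The median log2 fold change of the tested keratins was -0.28, against -0.068 over all genes. The other 18 keratins stayed under 1 TPM in both groups. Among them, *krt10*, *krt24* and *krt5.5* were listed at 0 in every sample, and *krt14*, the mammalian partner of *krt5*, reached at most 0.0945 TPM in one control sample. Numbered copies such as *krt5.1* to *krt5.7*, *krt8* and *krt8.2*, or *krt18* and *krt18l* may share sequence, and how reads were divided between them was not checked.

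Claudin transcripts summed to 3038, 3476 and 3602 TPM in morphants and to 2707, 3224 and 3039.5 TPM in control embryos, higher in the morphant sample of each set by 0.17, 0.11 and 0.24 on the log2 scale. This direction differs from that of most single claudins, since 7 of the 10 tested genes had a negative log2 fold change. Of these 7, *cldn23* and *cldn5* averaged 1 TPM or more only in control embryos, so passing the filter favoured a negative sign. Most of the sum is *cldn6.2*, *cldn7*, *cldn6.1* and *cldn4*, which together took 97.9 to 98.0% of claudin TPM in morphants and 96.5 to 97.5% in control embryos. Of these, *cldn6.2* and *cldn6.1* had a higher mean in morphants than in control embryos, whereas *cldn7* and *cldn4* had a lower mean. In the paired fit 1 of the 10 tested claudins was called higher and 2 lower, where limma called 2.62% of all genes higher and 5.87% lower.

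*cldn6.1* and *cldn6.2* carry the name of a claudin found in embryonic epithelia of mammals, and they are direct neighbours in the RefSeq gene table of assembly UCB_Xtro_10.0. *cldn6.1* was expressed at 513, 651 and 633 TPM in morphants, against 377, 509 and 336 TPM in control embryos. Every morphant sample was above every control sample, if only narrowly in set 1 against control set 2. The means were 599 ± 74.9 TPM in morphants and 407 ± 90.4 TPM in control embryos (SD, n = 3 each), and the log2 fold change was 0.57 (SE 0.11, limma adjusted p = 0.0418). The call ended without set 2 (0.68, limma adjusted p = 0.0695) and without a mean-variance trend (limma adjusted p = 0.0737).

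The neighbour *cldn6.2* is the most abundant claudin, at 1806, 1899 and 1963 TPM in morphants and 1608, 1673 and 1526 TPM in control embryos. It too was higher in every morphant sample than in any control, with a smaller log2 fold change of 0.24 (SE 0.067) that missed the threshold (limma adjusted p = 0.0766). The ratio of *cldn6.1* to *cldn6.2* was 0.284, 0.343 and 0.323 in morphants and 0.234, 0.304 and 0.220 in control embryos. How reads were divided between the 2 copies was not checked, so their separate changes are less certain than the level of the pair.

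*cldn1*, which in mammals is needed for the water barrier of the skin, was expressed at 23.4, 23.6 and 20.3 TPM in morphants and at 46.2, 35.7 and 43.4 TPM in control embryos. The groups were far apart, with the highest morphant sample well under the lowest control. *cldn1* fell to a mean of 22.4 ± 1.84 TPM in morphants, against 41.8 ± 5.46 TPM in control embryos (SD, n = 3 each), or 53.6% of that level. The log2 fold change of *cldn1* was -0.88 (SE 0.11, limma adjusted p = 0.0209), and it stayed between -1.02 and -0.78 with each set left out in turn.

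*cldn34* was expressed at 2.11, 1.202 and 2.48 TPM in morphants and at 4.53, 2.14 and 6.62 TPM in control embryos. The groups overlapped, since control set 2 lay within the range of the morphants, but each morphant sample was below its own control. The log2 fold change was -0.94 (SE 0.15, limma adjusted p = 0.0299), and the scale of log2(TPM + 0.5) understates the change of a gene this low.

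*cldn7* and *cldn4* are widespread claudins of epithelia in mammals. For *cldn7*, 400.1, 563 and 610.3 TPM in morphants stood against 392, 632 and 675 TPM in control embryos. The groups overlapped and the direction differed between sets, with a log2 fold change of -0.094 (SE 0.064, limma adjusted p = 0.348). *cldn4* behaved alike, at 291 ± 34.9 TPM in morphants and 323 ± 77.3 TPM in control embryos (SD, n = 3 each). Both genes were lowest in set 1 and highest in set 3 of each group.

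The other tested claudins were *cldn12*, at 37.2 ± 4.11 TPM in morphants and 36.7 ± 6.44 TPM in control embryos (SD, n = 3 each), and 3 genes of low expression. By their higher group mean, these 3 were the nearest above the filter. *cldn8.2* averaged 3.17 TPM in morphants and 4.23 TPM in control embryos, *cldn23* averaged 0.798 TPM in morphants and 1.34 TPM in control embryos, and *cldn5*, an endothelial claudin in mammals, averaged 0.778 TPM in morphants and 1.30 TPM in control embryos. Just outside the filter were *krt222* (group means of 0.712 TPM in morphants and 0.923 TPM in controls), *cldn15.2* (0.837 TPM in morphants and 0.462 TPM in controls) and *cldn3* (0.169 TPM in morphants and 0.577 TPM in controls). The 12 claudins outside the filter include *cldn2*, *cldn14* and *cldn19*, which were listed at 0 in every sample.

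**Figure D3:**
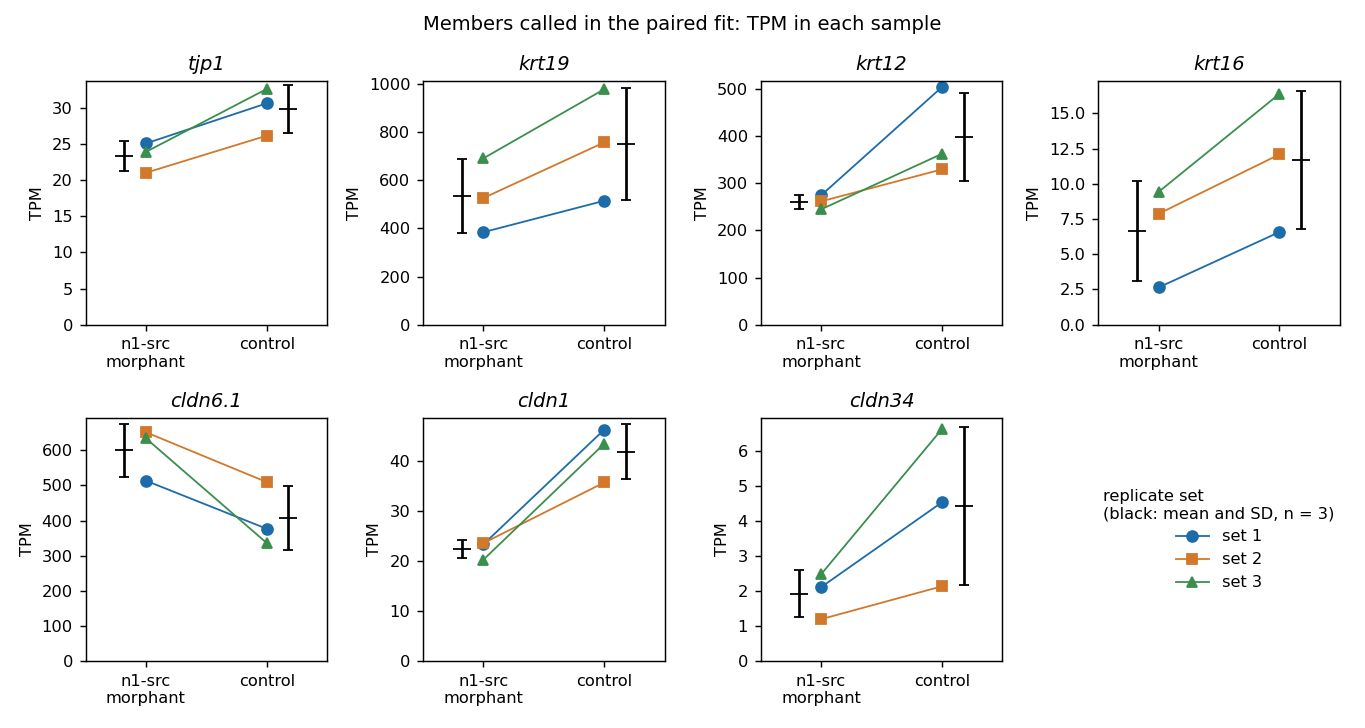
TPM in each sample of the 7 genes called in the paired fit, with n1-src morphants left of controls and lines joining the samples of one replicate set. Black marks give the group mean and SD (n = 3). Every line rises towards the control except those of *cldn6.1*, and the groups overlap for *krt19*, *krt16* and *cldn34*.

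Of the tight junction genes other than claudins, *tjp1* was lower, while *ocln*, *tjp3*, *cgn* and *cgnl1* did not pass the threshold. *tjp1* encodes ZO-1, a scaffold beneath the junction, and was expressed at 25.1, 21.0 and 23.9 TPM in morphants and at 30.7, 26.2 and 32.6 TPM in control embryos. The groups did not overlap, and the difference within sets was similar, at -0.28, -0.31 and -0.44. Its log2 fold change of -0.34 (SE 0.068, limma adjusted p = 0.0415) was close to the threshold and was lost under 10 of 13 alternatives, including each set left out (adjusted p of 0.0546 to 0.130 from limma).

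The related scaffold gene *tjp3* had 50.0, 48.1 and 53.2 TPM in morphants and 52.1, 49.1 and 60.4 TPM in control embryos. The groups overlapped, with a log2 fold change of -0.089 (limma adjusted p = 0.361). *ocln* was expressed at 90.4, 111 and 106 TPM in morphants and at 76.0, 99.98 and 110.4 TPM in control embryos. It was above its control in sets 1 and 2 and below it in set 3, for a log2 fold change of 0.11 (SE 0.076, limma adjusted p = 0.346). Cingulin, *cgn*, varied little between samples, at 27.9 ± 1.27 TPM in morphants and 27.0 ± 1.23 TPM in control embryos (SD, n = 3 each). Its paralog *cgnl1* was lower in abundance, at 6.68 ± 1.06 TPM in morphants and 7.22 ± 1.15 TPM in control embryos (SD, n = 3 each).

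For the 10 desmosome, plakin and *epcam* genes, limma called 0 higher and 0 lower, against 2.62% and 5.87% of all genes. An unadjusted p under 0.05 was reached by 7 of these 10, against 33.1% of all genes tested with limma. Their median log2 fold change was -0.24, and 6 were lower and 2 higher in all 3 sets, against 38.5% and 17.6% of all genes. Plakoglobin, *jup*, which also serves in adherens junctions, came nearest to the threshold. It was expressed at 131, 142 and 191 TPM in morphants and at 146, 181 and 251 TPM in control embryos. Each morphant sample was below its own control, while the groups overlapped, and the log2 fold change was -0.30 (SE 0.067, limma adjusted p = 0.0507). *jup* passed with a filter at 5 TPM (limma adjusted p = 0.0455) and without set 1 (-0.37, limma adjusted p = 0.0311).

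*pkp3*, a plakophilin of epithelia, was expressed at 84.5, 90.0 and 90.9 TPM in morphants and at 92.4, 102 and 117 TPM in control embryos. Its groups did not overlap, with a log2 fold change of -0.22 (SE 0.067, limma adjusted p = 0.0883). *pkp2*, which in mammals is the plakophilin of the heart and simple epithelia, was expressed at 75.8, 47.8 and 47.3 TPM in morphants and at 47.5, 41.0 and 43.3 TPM in control embryos. The first morphant sample, the one with the unusual share of LOC108645507 and LOC100335111, stood well above the rest. The log2 fold change of *pkp2* was 0.34 (SE 0.11, limma adjusted p = 0.105) and was 0.17 without set 1. *pkp4* averaged 37.2 ± 0.848 TPM in morphants and 37.6 ± 2.20 TPM in control embryos (SD, n = 3 each).

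By group mean, the tested desmosomal cadherins *dsc3* and *dsg2* were expressed at lower levels than the tested *pkp* genes, *jup* and *dsp*. *dsc3* had 9.14, 8.36 and 11.1 TPM in morphants and 10.2, 10.0 and 17.3 TPM in control embryos. The highest control, in set 3, stood apart, and the log2 fold change was -0.34 (SE 0.11, limma adjusted p = 0.0973). *dsg2* averaged 20.9 ± 9.44 TPM in morphants and 27.3 ± 15.2 TPM in control embryos (SD, n = 3 each), with a 3.57-fold range among the control samples alone. *dsg1* and *pkp1*, which in mammals belong to stratified epidermis, stayed at or under 0.121 TPM in every sample. *dsp*, at 53.6 ± 1.99 TPM in morphants and 57.0 ± 5.29 TPM in control embryos, and *epcam*, a membrane protein of epithelial cells, changed little relative to their spread. For *epcam*, expression was 1002, 1371 and 1442 TPM in morphants and 924, 1323 and 1362 TPM in control embryos, higher within each set by 0.12, 0.051 and 0.082. Its log2 fold change of 0.083 did not pass the threshold (SE 0.056, limma adjusted p = 0.337).

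*ppl* and *evpl* encode periplakin and envoplakin, which in mammals help build the cornified envelope. *ppl* averaged 76.3 ± 16.3 TPM in morphants and 91.4 ± 17.7 TPM in control embryos, and *evpl* averaged 72.7 ± 6.77 TPM in morphants and 87.6 ± 6.68 TPM in control embryos (SD, n = 3 each). Both were lower in all 3 sets, with log2 fold changes of -0.26 for *ppl* and -0.27 for *evpl* that missed the threshold (limma adjusted p = 0.0850 and 0.0576).

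Levels of these genes varied from set to set about as much as those of all genes tested. The median ratio of the highest to the lowest control sample was 1.46 for the 34 genes and 1.42 for all genes tested. The 34 genes deviated from their group means in the same way in both samples of a set. Their correlation across genes was 0.88 in set 1, 0.70 in set 2 and 0.83 in set 3, against 0.72, 0.61 and 0.73 over all genes tested. These correlations are a description, since the genes share the same 6 libraries. In control embryos 16 of the 34 genes were lowest in set 1 and highest in set 3, against 30.5% of all genes tested, and 13 of these 16 showed the same order in morphants. Over all genes tested, 4088 had this order in control embryos, and 2436 of them also had it in morphants. The 13 genes include *krt5.7*, *krt8*, *krt19*, *krt16*, *cldn4*, *cldn7*, *jup*, *dsg2* and *epcam*. *krt12*, *krt5.1*, *ppl*, *evpl* and *pkp2* were instead highest in set 1 of both groups.

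**Figure D4:**
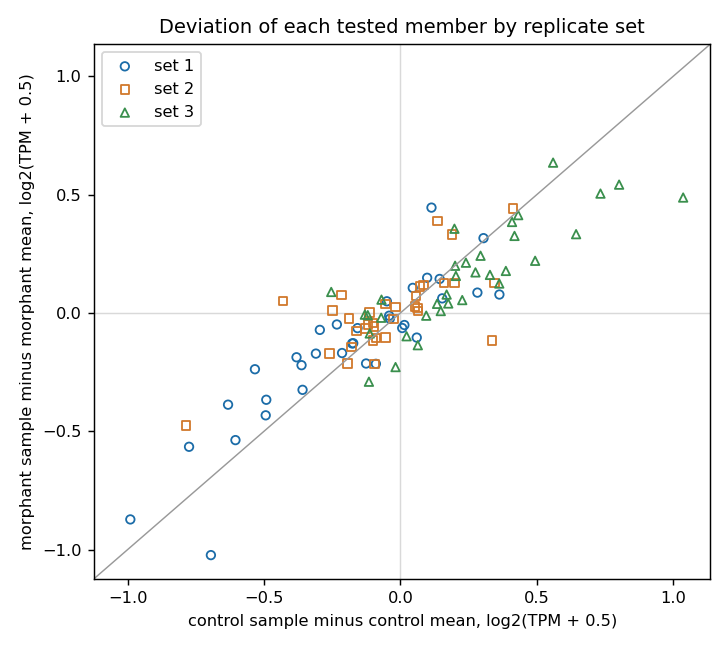
Deviation of each of the 34 tested genes from its group mean on the log2(TPM + 0.5) scale, in the control sample (x axis) and the morphant sample (y axis) of the same replicate set. The grey line marks equal deviation. Points of set 1 lie mostly in the lower left and those of set 3 mostly in the upper right, with correlations of 0.88, 0.70 and 0.83 in sets 1, 2 and 3.

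Further epithelial genes were read from 4 lists, of which 64 genes were tested, with *cgnl1*, described above, left out. Of these, 2 were called higher and 5 lower, where all genes tested gave 2.62% higher and 5.87% lower, and their median log2 fold change was -0.077, against -0.068 over all genes. No adherens junction gene was called (0 of 7 from limma, 2 with an unadjusted p under 0.05, against 33.1% of all genes tested). *cdh1*, E-cadherin, had a log2 fold change of -0.19 (limma adjusted p = 0.172), *nectin2* -0.17 and *afdn* 0.20. Of 25 polarity and other tight junction genes, 3 were lower and 0 higher, namely *jam3*, a junctional adhesion molecule, at -0.66, the basolateral polarity gene *scrib* at -0.54 and the apical polarity gene *crb3* at -0.45 (limma adjusted p = 0.0299, 0.0398 and 0.0484). *jam3* was expressed at 7.53, 7.15 and 9.93 TPM in morphants and at 10.3, 11.9 and 18.2 TPM in control embryos, without overlap. Of 6 hemidesmosome and basement zone genes, *itga3* was lower (-0.41, limma adjusted p = 0.0319), while *plec* at -0.23 and *cd151* at -0.29 did not pass the threshold. All 6 had a negative log2 fold change, against 8341 of 13382 genes tested, with a median of -0.28. An unadjusted p of at most 0.05 from limma was reached by 5 of the 6, against 33.1% of all genes tested. *itga3*, an integrin subunit that binds laminin, was expressed at 20.9, 20.5 and 21.1 TPM in morphants and at 27.4, 26.4 and 29.7 TPM in control embryos, also without overlap. Among 26 epidermal regulators, *klf17* and *gata2* were higher, at 0.41 and 0.34, and *vgll2*, a transcription cofactor, was lower at -0.82 (limma adjusted p = 0.0285, 0.0328 and 0.0181). The 3 morphant samples had 5.15, 3.73 and 4.54 TPM of *vgll2*, each below all control samples, which had 9.40, 6.73 and 8.70 TPM.

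Markers of the cell types in a whole embryo were read from 7 lists. Beside them, limma called 8.49% of all genes tested, and 33.1% had an unadjusted p of at most 0.05. Of the 5 epidermal markers tested, 0 were called by limma, 2 of them with an unadjusted p under 0.05. The listed keratin symbol *krt12.4* was not found, and *krt12*, called lower above, is not in this list. The summed level of the 5 markers was 533 to 779.6 TPM in morphants and 722.5 to 817 TPM in control embryos. On the log2 scale, 3 of the 5 changes were negative and 2 positive. The regulators *tp63* and *tfap2a* were at 0.0093 and 0.12, and *grhl3* was at -0.10. *itln1*, a lectin of the secretory cells of the frog epidermis, was at -0.80 (limma adjusted p = 0.0503). Its level was 97.3, 228 and 101 TPM in morphants and 231, 272 and 191 TPM in control embryos. *itln2* changed most, at -1.06 (limma adjusted p = 0.0607). It had 28.7, 111 and 32.2 TPM in morphants and 93.6, 128 and 80.1 TPM in control embryos. Both *itln1* and *itln2* were lower in every set. The 5 markers of multiciliated cells were all below zero on the log2 scale and limma called 0, with 4 at an unadjusted p under 0.05 and sums of 69.6 to 93.2 TPM in morphants and 81.9 to 133.5 TPM in control embryos. Ionocyte markers (1 of 4 called higher) summed to 160.1 to 211 TPM in morphants and 153.8 to 176 TPM in control embryos. Of these, *ubp1* was called at 0.48, while *atp6v1b1* was at -0.34 (limma adjusted p = 0.0652), with every morphant sample below every control. Notochord markers (1 of 6 called higher) summed to 296 to 338 TPM in morphants and 271 to 331 TPM in control embryos. The called gene was *t*, at 0.39, while *tbxt* was at 0.097 with sets in different directions. Of the 6, 4 had a positive log2 fold change, and *shh* at -0.24 and *foxa2* at -0.22 were lower in every set without a call. Muscle markers (2 of 6 called lower) summed to 3746 to 5189 TPM in morphants and 4674 to 6281 TPM in control embryos. Neural plate markers (1 of 6 called lower) summed to 668 to 875 TPM in morphants and 743 to 926.5 TPM in control embryos. The called gene was *nrp1* (-0.82, limma adjusted p = 0.0288), and whether this symbol stands for the neural plate marker intended was not checked. Of the 6, 5 had a negative log2 fold change, and *sox2* was higher in every set (0.12, limma adjusted p = 0.215). Endoderm markers (0 of 7 called by limma, 1 at an unadjusted p under 0.05) summed to 231 to 328 TPM in morphants and 188 to 309 TPM in control embryos. No marker found in the table was at 0 in any sample, and the part of these cell types in the keratin and junction results was not tested.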

How the data were processed

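Polyadenylated RNA of 6 samples was sequenced as Illumina short reads. Salmon was used by the authors for quantification, with version 9.1 of the *X. tropicalis* reference transcriptome, and they aggregated transcripts to genes. The submitters' processing notes also name cutadapt and sleuth. The deposited values are TPM, scaled by the authors to 1000000 per sample, beside the mean TPM of each group, which was not used. TPM carries no read depth, so no counting error, interval or detection floor is given, and the spread between samples is the only error. Column names gave the samples, and 0 columns of per-sample values were left out.

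A gene was tested when its mean was 1 TPM or more in one of the groups. The model, fitted to log2(TPM + 0.5) by limma 3.58.1 (R 4.3.3), held the group and the replicate block, its prior variance followed expression level (trend), and p-values were adjusted over all 13382 genes by the Benjamini-Hochberg method. The study used Sleuth, which was not run. Numbers 1 to 3 recur in both groups, the study describes sibling embryos and speaks of sets, and same-numbered samples deviated together (correlation of 0.61 to 0.73 over all genes tested). With the block, 2 residual degrees of freedom remain, and 4 remain when it is dropped.

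The genes and lists were chosen with earlier results of these data known. Values per sample are given for every gene called, for the 3 genes of highest mean and the 2 of largest change in each class. Up to 3 companion genes per list, those of smallest adjusted p, are named, with values per sample for the first gene called in a list. Other genes are given as means and counts, some with values that fall outside this rule. One tested gene enters the counts but is not reported here. Keratin types were assigned by symbol. Of the 66 symbols, 46 occur in the RefSeq gene table of UCB_Xtro_10.0, from which no coordinates are given because the files rest on another build. No sequences were used here.

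Alternatives were pseudocounts of 0.1 and 1, quantile normalization, median scaling, leaving each set out, no replicate block, a filter at 5 TPM or none, no mean-variance trend, LOC108645507 and LOC100335111 left out, and a threshold of 0.01. Whether samples came from separate clutches is not stated in the sources used here. With the block, the p-values rest on how the morphant and control difference varied between these sets, with variances moderated over all genes tested. The spread from set to set itself does not enter them.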

Additional observations from a re-analysis of the deposited data

How the results depend on the processing

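The fit with the replicate block called 1 gene of the 34 higher and 6 lower. Without the block, with no filter on low TPM and at a threshold of 0.01, limma called 0 higher and 0 lower. Unadjusted p was under 0.05 for 5, 22 and 20 of the 34, 60 and 34 genes tested in those fits. Over all genes, this held for 1124 of 13382, 4975 of 21387 and 4436 of 13382 in the same order. These fits called 0 higher and at most 1 lower over all genes tested. With each replicate set left out, the counts ranged from 0 to 1 higher and from 0 to 7 lower, and without a mean-variance trend they were 0 higher and 4 lower. The median log2 fold change of -0.15 became -0.051 with median scaling and ranged from -0.21 to -0.090 with a set left out. Median scaling moved the median of all genes to 0.026, against -0.068 before it. Of the companion epithelial genes, 2 were called higher and 5 lower. Without the block, with no filter and at 0.01, 0 were called higher and 0 lower, with a set left out 0 to 3 higher and 0 to 6 lower, and without a trend 0 higher and 1 lower. Median scaling and quantile normalization each gave 3 lower. No named gene with a call changed direction under these alternatives. Over the named keratin and junction genes, 252 of the recomputed changes kept their side of the threshold, 39 lost a call and 3 gained one. The 252 include genes that had no call to lose, and all 39 losses fell on the 7 called genes. *tjp1* lost its call under 10 of 13 alternatives, *krt12* and *cldn6.1* under 6 of 13 and *krt19* under 5 of 13. For *cldn1* and *krt16* it was lost under 4 of 13, and for *cldn34* under 4 of 12. Over all genes, limma called 472 higher and 714 lower without set 1, 85 and 198 without set 2, and 44 and 63 without set 3. The cause of the losses was not tested. Read depth is unknown from TPM, so values under 1 TPM are the least certain.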

Other observations

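Some genes outside the filter or beside the main comparison showed values that a reader may want to follow up, chosen after their values were seen and given without a test. *cldn3* was at 0.113, 0.282 and 0.111 TPM in morphants and at 0.774, 0.467 and 0.491 TPM in control embryos, without overlap, while its direct neighbour in the RefSeq table, *cldn4*, averaged 291 TPM in morphants and 323 TPM in control embryos. *krt75* was at 0.0190, 0 and 0.0303 TPM in morphants and at 0.179, 0.0765 and 0.227 TPM in control embryos, and *krt17* was at 0.210, 0.148 and 0.0934 TPM in morphants and at 0.238, 0.403 and 0.541 TPM in control embryos. These levels are low, and how many reads account for them is not known from TPM.

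The ratio of *krt19* to *krt8*, which is free of any scaling of the samples, was 0.120, 0.153 and 0.177 in morphants and 0.147, 0.195 and 0.215 in control embryos, lower within sets 1, 2 and 3 by -0.29, -0.35 and -0.28 on the log2 scale. The ratio of *krt8* to *krt18* was 0.789, 0.729 and 0.899 in morphants and 0.780, 0.860 and 1.16 in control embryos, and it did not keep one direction across sets.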
